A study of Saccharomyces cerevisiae S288C with 6 samples.

Results

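Copper uptake and its control were followed through 9 genes of Saccharomyces cerevisiae, MAC1, CTR1, CTR2, CTR3, FRE1, FRE7, CUP2, CRS5 and ATX1, out of 5449 yeast genes with a probe set. They were chosen by name for their roles in copper handling, with earlier results of these data known, and each was read on its single probe set, none of them shared between sequences. Copper is a cofactor of cytochrome oxidase, of the superoxide dismutase Sod1 and of the iron oxidase Fet3, and is toxic when free. When copper is scarce, the transcription factor Mac1 activates genes for the cell-surface reductases Fre1 and Fre7, which reduce the metal, and for the transporters Ctr1 and Ctr3, which carry it in. When copper is plentiful Mac1 is inactive, and a second factor, Cup2 (also called Ace1), binds copper and activates genes for metallothioneins, small cysteine-rich proteins that hold the metal. Copper itself switches both factors at the protein level.

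The cells were of S288C, a haploid reference strain of alpha mating type, in which a Ty2 transposon in the promoter of CTR3 is known to lower that gene's expression. All cultures grew in MOPS-buffered synthetic glucose medium at pH 7.0. At an optical density of 0.2 they were given either plakortide F acid (PFA), an antifungal endoperoxide from marine sponges, at its IC50 of 0.62 ug/ml, or 0.25% of the solvent DMSO, and both groups were collected at 0.5. Each group held 3 biological replicates with 1 Affymetrix Yeast Genome 2.0 array each, and the number of arrays limits the precision. The sources used here give neither the copper content of the medium nor the time to harvest, nor the DMSO content of the PFA cultures.

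Values are the authors' signal intensities on a linear scale, with trimmed means of 999.5 to 999.6 on the 6 arrays. From 98.1% to 98.7% of yeast probe sets on an array lay above a background signal of 20.01, set from the probe sets of another organism. Control probe sets at the 3' and 5' ends of the ACT1 transcript, whose ratio reports on RNA integrity, gave ratios of 1.20 to 1.28 in DMSO and 1.19 to 1.25 in PFA. Of the marker lists for mating type, all 4 alpha-cell and all 6 a-cell genes lay above background on every DMSO array. Their levels there differed, with alpha-cell signals from 6580 to 18521 and a-cell signals from 65.6 to 659. In PFA all 4 alpha-cell markers fell, and of the 6 a-cell markers 4 fell, 1 rose and 1 was not called, where 31.8% of all genes were lower, and the part of mating type in the copper results was not tested.

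Of the 9 copper genes, 8 had a mean signal above background and were tested, and 4 rose and 4 fell in PFA (limma adjusted p under 0.05 over 5356 genes). By the same rule 62% of all genes changed, 30.3% higher and 31.8% lower. In each of the 8 genes the groups lay apart, with no PFA array inside the range of the DMSO arrays, which held for 66.6% of all genes. All 8 were above background on all 6 arrays. CTR1, FRE1, CUP2 and CRS5, or 4 of the 8, were called and changed by 2-fold or more, against 9.37% of all genes. FRE7 was too dim to be tested.

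**Figure D1:**
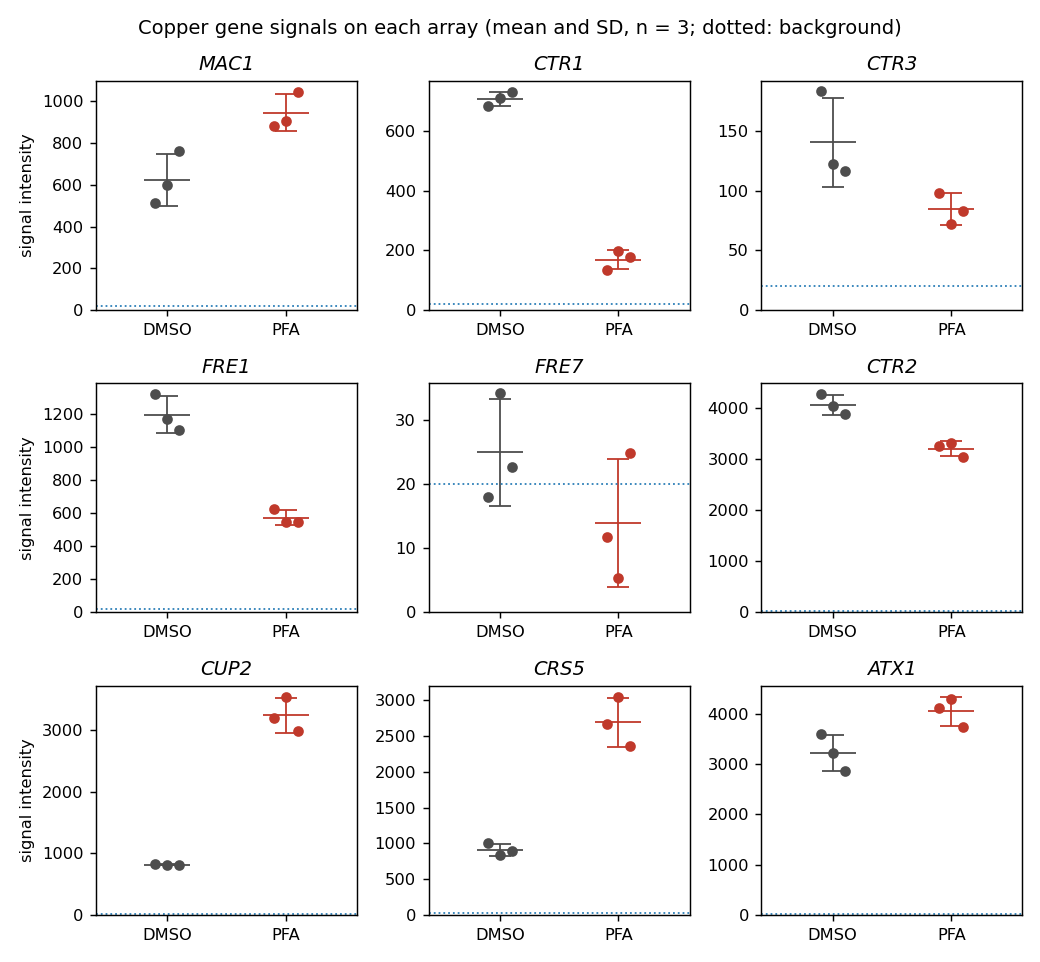
Signal intensity (linear axis from 0, a scale of its own in each panel) of the 9 copper genes on the 3 DMSO and 3 PFA arrays, with points for arrays, bars for the mean and SD, and a dotted line at the background signal of 20.01. CTR1, CTR2, CTR3 and FRE1 sit lower and MAC1, CUP2, CRS5 and ATX1 higher on the PFA arrays without overlap, and FRE7 straddles the background line.

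CTR1 (YPR124W), which encodes the main high-affinity copper transporter of the plasma membrane, had signals of 683, 710.2 and 729.7 in DMSO and of 133, 197 and 176 in PFA. The highest PFA value lay far below the lowest DMSO value. The mean went from 708 ± 23.4 to 169 ± 32.8 (SD, n = 3), a 4.25-fold fall with a 95% interval of 3.47 to 5.20 (log2 change -2.09 ± 0.13, SE, limma adjusted p = 5.53e-08). Of 5356 genes, 32 fell as far or farther, CTR1 included.

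FRE1 (YLR214W), the gene of a reductase that supplies reduced copper and iron to the transporters, read 1317, 1167 and 1099 in DMSO against 622, 544 and 547 in PFA. The highest PFA value lay well under the lowest DMSO value. FRE1 fell 2.09-fold (log2 change -1.06 ± 0.09, SE, limma adjusted p = 9.51e-07).

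CTR3 (YLR411W), the second high-affinity copper transporter gene, was dim. Its signals were 183, 122 and 116 in DMSO and 98.2, 71.6 and 82.9 in PFA, still above background on each array. DMSO replicate 1 stood above its group, and the gap between the groups was narrow. The 1.65-fold fall (log2 change -0.72 ± 0.21, SE, limma adjusted p = 0.0107) was not called without DMSO replicate 1, where the log2 change was -0.51 (adjusted p = 0.054). With a pseudocount of 64 added to each signal, the log2 change shrank to -0.45 and was still called (adjusted p = 0.01).

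FRE7 (YOL152W), a reductase gene that Mac1 activates in copper-starved cells, gave 18.0, 34.2 and 22.6 in DMSO and 11.7, 5.32 and 24.9 in PFA. The groups overlapped, and 2 of 3 DMSO arrays and 1 of 3 PFA arrays were above background, so no fold is given. Fitted without the filter on dim genes, its adjusted p was 0.158.

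Genome-wide work on the yeast copper regulon has linked a further pair of genes to Mac1, REE1 and IRC7. REE1 (YJL217W), whose product acts on the glycolytic enzyme enolase, read 4115, 3959 and 4430 in DMSO and 1010.1, 937 and 774 in PFA. The groups did not overlap, and the fall was 4.62-fold (log2 change -2.21 ± 0.10, SE, limma adjusted p = 2.04e-09). IRC7 (YFR055W), a sulfur amino acid lyase gene, read 817, 903 and 924 in DMSO and 766, 605 and 866 in PFA. Its groups overlapped and it did not pass the test, with a log2 change of -0.25, a 95% interval of -0.51 to 0.0038 and a limma adjusted p of 0.08. It was called lower when each array was centred on its median (log2 change -0.32, adjusted p = 0.0307), after quantile normalization (-0.33, 0.032) and without PFA replicate 3 (-0.37, 0.0149). These 6 Mac1-linked genes, CTR1, CTR3, FRE1, FRE7, REE1 and IRC7, were put together after the values were seen. Of them 5 were tested and 4 fell, among them CTR3 with the limits given above, where 31.8% of all genes fell.

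CTR2 (YHR175W) encodes a relative of Ctr1 that sits in the vacuolar membrane and releases stored copper to the cytosol, and it is not among the Mac1 targets. Signals were 4268, 4037 and 3882 in DMSO and 3254, 3323 and 3036 in PFA. The groups did not overlap, but the fall was 1.27-fold (log2 change -0.34 ± 0.07, SE, limma adjusted p = 0.000967), and 23.5% of all genes fell at least as far.

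Both copper-sensing transcription factor genes rose. MAC1 (YMR021C) read 512, 597 and 760.3 in DMSO and 884, 904 and 1046 in PFA. The DMSO arrays were spread, and the highest of them came close to the lowest PFA array. The mean went from 623 ± 126 to 945 ± 88.5 (SD, n = 3), a 1.53-fold rise (log2 change 0.62 ± 0.13, SE, limma adjusted p = 0.00119). With each array left out in turn the log2 change lay between 0.48 and 0.77. The MAC1 transcript was higher in the same cultures in which CTR1 and FRE1 were lower.

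CUP2 (YGL166W) moved more. Its signals were 830.1, 805 and 819 in DMSO and 3199, 3547 and 2985 in PFA. Its DMSO arrays lay close together and every PFA array was far above them. The rise was 3.96-fold, with a 95% interval of 3.50 to 4.48 (log2 change 1.98 ± 0.08, SE, limma adjusted p = 8.88e-10), and 83 of the 5356 genes rose as far or farther, CUP2 included.

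CRS5 (YOR031W), a metallothionein gene activated by Cup2, read 1006, 837 and 887 in DMSO and 2662, 3046 and 2358 in PFA. The lowest PFA array was above the highest DMSO array by a wide margin, and the rise was 2.95-fold (log2 change 1.56 ± 0.10, SE, limma adjusted p = 7.77e-08). CUP1-1 and SOD1 are further targets of Cup2. CUP1-1, the main metallothionein gene, read 22034.5, 22780.5 and 20506 in DMSO and 23237.5, 24972 and 24589 in PFA. It was among the 6 brightest probe sets of the table on every array, and its probe set is shared between sequences, so its copies cannot be told apart. Whether its signal was near the ceiling of the scanner was not tested. Its 1.12-fold rise (log2 change 0.16 ± 0.05, SE, limma adjusted p = 0.0105) was not called once each array was centred on its median (adjusted p = 0.123) or without the variance trend (adjusted p = 0.0871). CUP1-2, the second copy, was named for no probe set in this annotation. SOD1, the copper-zinc superoxide dismutase gene, had a log2 change of -0.05 (95% interval -0.15 to 0.05, limma adjusted p = 0.366), and after quantile normalization it was called higher, at 0.12 (adjusted p = 0.0096).

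**Figure D2:**
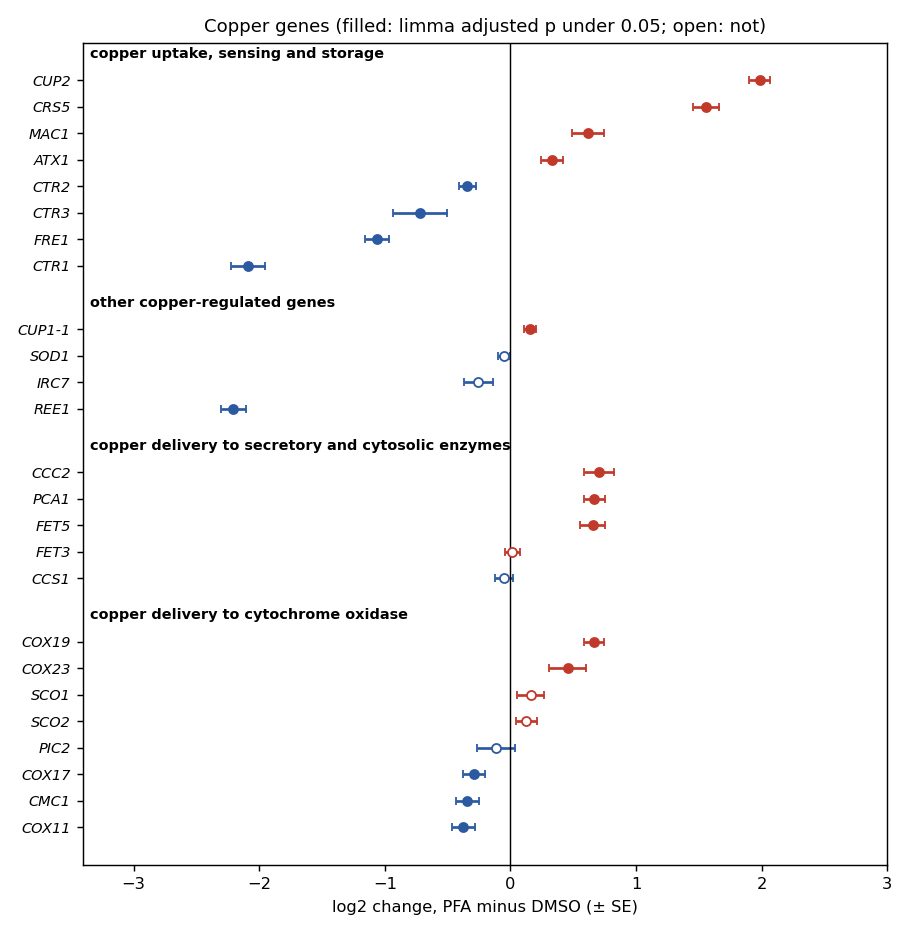
Log2 change from DMSO to PFA with its standard error (n = 3 arrays a group) for the tested copper genes and for lists of other copper genes, with filled points for a limma adjusted p under 0.05 and open points for the rest. CUP2 and CRS5 stand at the high end and CTR1 and REE1 at the low end, and the genes of the copper delivery lists lie between -0.37 and 0.71.

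ATX1 (YNL259C) encodes the cytosolic chaperone that hands copper to the secretory pathway, and its gene is also activated by the iron regulator Aft1. It read 3587, 3220 and 2869 in DMSO and 4112, 4296 and 3729 in PFA, and the gap between the highest DMSO and the lowest PFA array was small. The rise was 1.26-fold (log2 change 0.33 ± 0.09, SE, limma adjusted p = 0.00603), and 24.6% of all genes rose at least as far. CCC2, the Golgi copper pump that receives copper from Atx1, rose 1.63-fold (log2 change 0.71 ± 0.12, SE, limma adjusted p = 0.000258), from 1086, 813 and 879 in DMSO to 1300.0, 1699 and 1529.8 in PFA.

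The list for copper delivery to secretory and cytosolic enzymes also held multicopper oxidase genes and a metal pump gene. Its counts are thus not of delivery genes alone. Of its 5 genes, 3 rose, none fell and 2 were not called, beside 30.3% higher and 31.8% lower of all genes. The share called in either direction was near the 62% of all genes. Besides CCC2 the genes that rose were FET5, a vacuolar multicopper oxidase gene (1.58-fold, limma adjusted p = 0.000113), and PCA1, a P-type metal pump gene (1.59-fold, adjusted p = 2.29e-05). FET3, the multicopper oxidase of iron uptake, had a log2 change of 0.02 (95% interval -0.11 to 0.14, adjusted p = 0.837). CCS1, the copper chaperone of Sod1, had a log2 change of -0.05 (95% interval -0.21 to 0.10, adjusted p = 0.536).

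Genes for copper delivery to cytochrome oxidase in mitochondria were mixed and their changes were small. Of 8 tested, 2 rose, 3 fell and 3 were not called, a share called near the 62% of all genes, with a median log2 change of 0.00 against -0.02 for all genes. COX19, an assembly factor of the space between the mitochondrial membranes, rose 1.59-fold (limma adjusted p = 1.57e-05). COX23 rose 1.37-fold (adjusted p = 0.0163), but its groups overlapped and it was not called after quantile normalization (adjusted p = 0.0619) or without DMSO replicate 2, DMSO replicate 3 or PFA replicate 2 (adjusted p from 0.0623 to 0.0729). COX17, the chaperone that brings copper to Sco1 and Cox11, fell 1.22-fold, COX11 1.30-fold and CMC1 1.27-fold (adjusted p = 0.00999, 0.00308 and 0.00703). SCO1, SCO2 and PIC2, the last a mitochondrial carrier gene, had log2 changes of 0.16, 0.13 and -0.12 and adjusted p values of 0.209, 0.214 and 0.524. SCO2 was called higher without PFA replicate 3 (adjusted p = 0.044).

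**Figure D3:**
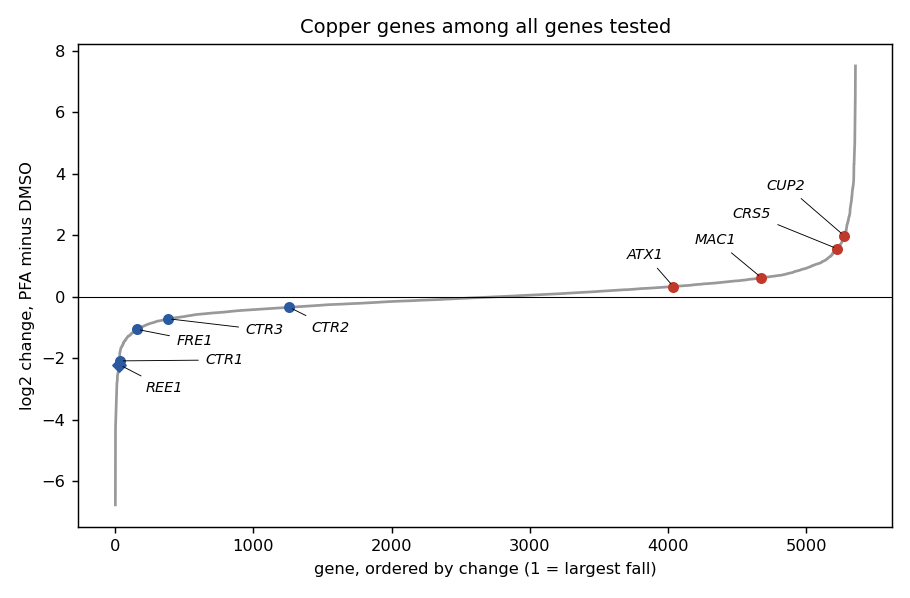
Log2 change from DMSO to PFA of the 5356 genes tested, ordered from the largest fall to the largest rise, with the 8 tested copper genes (circles) and REE1 (diamond) marked. CTR1 and REE1 lie among the 32 largest falls and CUP2 among the 83 largest rises, while CTR2 and ATX1 lie in the flat middle of the curve.

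The changes of different genes were set against each other in ratios of a pair of genes on the same array, which do not depend on the factor by which each array was scaled. For each of 8 pairs, chosen after the values were seen, an exact two-sided permutation test over the arrays was run, in which 3 against 3 cannot give a p below 0.1. The log2 ratio of CTR1, the plasma membrane transporter, to CTR2, the vacuolar one, differed by -1.75 ± 0.19 between PFA and DMSO (SE, n = 3, exact permutation p = 0.1), and it was lower on each PFA array than on any DMSO array. For CTR1 to CTR3 the difference was -1.37 ± 0.38, and for CTR1 to FRE1 -1.03 ± 0.25, again with no overlap (SE, n = 3, exact permutation p = 0.1 for each). The ratio of CTR1 to REE1 had overlapping groups, with a difference of 0.12 ± 0.25 (SE, n = 3, exact permutation p = 0.6).

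The ratio of CUP2 to MAC1, the sensors of high and low copper, differed by 1.37 ± 0.22 on the log2 scale, and that of the metallothionein genes CRS5 to CUP1-1 by 1.40 ± 0.14 (SE, n = 3, exact permutation p = 0.1 for each). CUP1-1 had the highest signal of the table on all 3 PFA arrays, and the part of a signal ceiling in its ratio was not tested. The ratio of CRS5 to CUP2, its activator, differed by -0.42 ± 0.07, and that of CCC2 to ATX1 by 0.38 ± 0.15 (SE, n = 3, exact permutation p = 0.1 for each). In 7 of the 8 pairs the groups did not overlap, and the p of 0.1 became 0.114 after Benjamini-Hochberg adjustment over the 8. Every gene in these pairs already had groups that lay apart, as did 66.6% of all genes. The pairs were also picked with the values known, and the share over pairs of all genes was not counted. No conclusion is drawn from the count of 7.

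**Figure D4:**
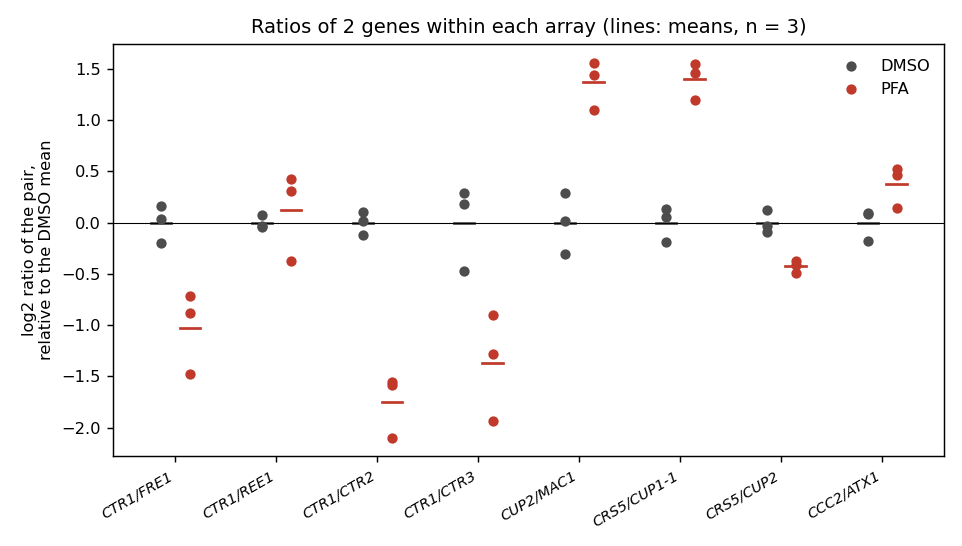
Log2 ratio of the signals of 2 genes on each array, relative to the DMSO mean of that ratio, for 8 pairs in DMSO and PFA (points are arrays, lines are means, n = 3). The ratios of CTR1 to FRE1, CTR2 and CTR3 lie lower and those of CUP2 to MAC1 and CRS5 to CUP1-1 higher in PFA, and the ratio of CTR1 to REE1 overlaps.

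Reductases and transporters that can also handle copper were read for comparison. Of 7 other genes of the FRE family, 2 rose, 3 fell and 2 were not called, beside 30.3% higher and 31.8% lower of all genes. FRE2 and FRE3, reductases of iron and of iron-siderophore complexes, fell 1.80-fold and 1.78-fold (limma adjusted p = 7.08e-05 and 0.000119), and FRE5 fell 2.11-fold (adjusted p = 0.000992). FRE5 was dimmer than CTR3, at 102, 106 and 108 in DMSO and 51.1, 41.2 and 59.0 in PFA. With a pseudocount of 64 its log2 change shrank from -1.08 to -0.57 (adjusted p = 0.000591). FRE4 rose 1.48-fold (adjusted p = 0.0002). AIM14, a more distant relative, rose 1.27-fold (adjusted p = 0.015), a call lost without DMSO replicate 3 or PFA replicate 3 (adjusted p = 0.055 and 0.052). FRE6, the vacuolar reductase that works with Ctr2, had a log2 change of 0.19 (adjusted p = 0.0713), and FRE8 one of 0.03 (adjusted p = 0.89).

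Among 5 other transporters known to carry copper or related metals, 3 fell, 1 rose and the other was not called, beside 31.8% lower and 30.3% higher of all genes. FET4, a low-affinity carrier of iron, copper and zinc, went from 3309, 3448 and 3331 in DMSO to 1887, 1727 and 1623 in PFA. Its groups were well apart, with a 1.93-fold fall (limma adjusted p = 4.6e-07). The zinc transporter gene ZRT1 fell farther, by 1.65 on the log2 scale (adjusted p = 4.48e-10). SMF1, a manganese carrier gene, had a log2 change of -0.24 (adjusted p = 0.0284), and was not called without DMSO replicate 2 or 3 or PFA replicate 1 or 2 (adjusted p from 0.08 to 0.0999). SMF2, its relative, had a log2 change of 0.08 (adjusted p = 0.449), and the phosphate transporter gene PHO84 one of 0.25 (adjusted p = 0.000719).

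**Figure D5:**
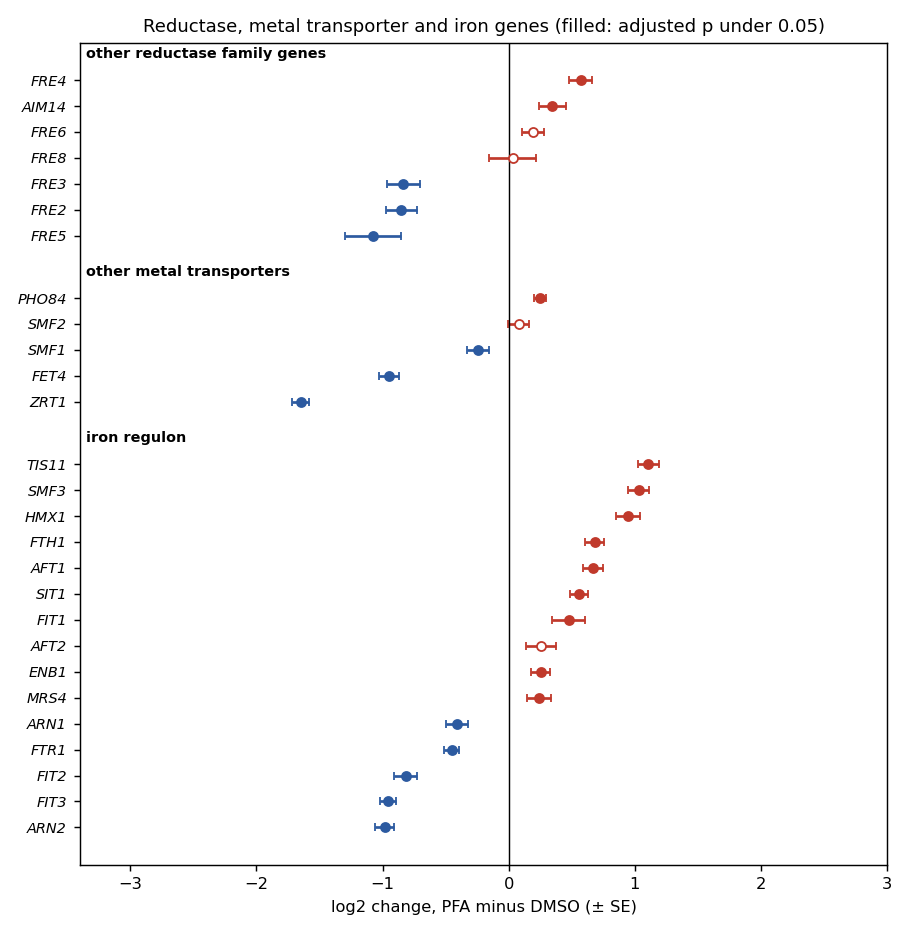
Log2 change from DMSO to PFA with its standard error (n = 3 arrays a group) for other reductase genes, other metal transporter genes and 15 genes of iron uptake and use, with filled points for a limma adjusted p under 0.05 and open points for the rest. The iron genes spread from ARN2 at -0.98 to TIS11 at 1.11.

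Copper is a cofactor of Fet3, the multicopper oxidase of iron uptake, and Aft1 activates the iron regulon when iron is scarce. Of 15 genes listed for the iron regulon, 9 were higher and 5 lower, beside 30.3% higher and 31.8% lower of all genes. In all 14 were called, against 62% of all genes. The median log2 change was 0.26, against -0.02 for all genes. The list holds the regulator genes AFT1, among the 9, and AFT2, which was not called and whose own change is that median. It is also partial. Iron-linked genes counted elsewhere above went both ways. They include FRE1, FRE2, FRE3, FRE5 and FET4, which fell, ATX1, CCC2, FET5 and FRE4, which rose, and FET3, which was not called. Of the 9, MRS4, a mitochondrial iron carrier gene named after its values were seen, had overlapping groups and an adjusted p of 0.0424, and was not called in 7 of 15 alternatives (adjusted p from 0.0655 to 0.15). TIS11, an mRNA-binding protein gene of the iron response, rose 2.15-fold and SMF3, a vacuolar iron exporter gene, 2.04-fold (limma adjusted p = 2.52e-07 and 5.18e-07). ARN2, a siderophore transporter gene, and FIT3, a cell wall mannoprotein gene of siderophore retention, fell 1.98-fold and 1.94-fold (adjusted p = 4e-07 and 5.92e-08).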

How the data were processed

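Total RNA of 6 cultures was labelled with biotin and hybridized to 1 array each, and groups and replicate numbers came from the sample titles. The authors deposited a linear signal intensity for each probe set, made with GCOS 1.1 per the submitters' processing notes; the sources used here name no summary or background step. In these deposited intensities, means without the lowest and highest 2% were equal across arrays, so no scaling was added here, and a shift of all transcripts would not be seen.

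By the platform's annotation, updated from RefSeq's gene table, 5498 of 10928 probe sets matched 1 yeast gene each (5449 genes). The brightest probe set stood for a gene, and 5356 genes with a mean log2 signal above the 95th percentile of 1746 probe sets of another organism (log2 4.32) were tested. Log2 intensities were compared with limma 3.58.1 in R 4.3.3 (eBayes with a variance trend; two-sided p adjusted by Benjamini-Hochberg over the 5356 genes; threshold 0.05). No pseudocount was added. Folds compare geometric means, whereas each mean ± SD is of linear signals. Simulated data for PFA against DMSO over 5356 genes gave back 77.6% of log2 changes of 0.5, 95.5% of 1 and 100% of 2, with 8 false calls in 5156 unchanged genes. Only 67, 67 and 66 genes were changed by these sizes, and the noise of each gene was drawn on its own. In the real data 62% of genes were called, and noise shared within an array was not simulated. These rates are therefore not error rates of the calls reported here.

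The members and gene lists were chosen with earlier results of these data known. All members were named whatever their result, and genes of the copper, reductase and metal transporter lists, of up to 8 members each, could be. Mating-type markers were only counted, apart from the ranges of their DMSO signals. Of the iron list, the 4 called genes with the largest changes and groups that did not overlap were named. MRS4, AFT1 and AFT2 were named as well, after the values were seen, as limits on the counts of that list. The set of 6 Mac1-linked genes and the within-array pairs were chosen after the values were seen. Same-numbered arrays did not deviate together (correlations of -0.05, -0.09 and 0.16 for replicates 1, 2 and 3), so the numbers were not taken as pairs. Plots used matplotlib 3.10.9 under Python 3.11.15.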

Additional observations from a re-analysis of the deposited data

How the results depend on the processing

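For the 8 tested copper genes, 115 of 116 values over the 15 alternatives kept their direction and side of the threshold, the exception being CTR3 without DMSO replicate 1. The stricter filter left 4 of the 8, all called, and 2724 genes, of which 1893 were called. Without the filter, FRE7 was fitted and not called. Leaving out each array in turn gave 7 to 8 copper genes and 2963 to 3266 genes of all called. With the replicate number as a block, 8 copper genes and 3366 genes of all were called, against 3323, and it changed no call of a named gene. Centring on the median gave 1416 higher and 1982 lower genes of all, against 1622 and 1701, and its median change of all genes was -0.08 against -0.02. Among the other listed genes, 9 of 643 values changed sign. These were SOD1 after quantile normalization (0.12), FET3 after centring (-0.049), FRE8 after quantile normalization (-0.064) and centring (-0.031), and 5 values with an array left out, over which FET3 ran from -0.043 to 0.061, PIC2 from -0.28 to 0.075 and FRE8 from -0.11 to 0.29. Another 19 lost their call, 5 gained it, and the cause was not tested. Genes near background, such as FRE7, CTR3 and FRE5, and CUP1-1 near the top of the signal range, are those for which the arrays limit what can be measured.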
